A study of Mus musculus with 2 samples.

Results

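The genes described here are the interleukins and their receptors, chosen as every row of the count table whose gene name starts with Il and a digit. They numbered 83 of the 49492 genes in the table. By role they were 37 ligands, 3 soluble antagonists, 38 receptor chains, 3 decoy receptors, 1 enzyme (*Il4i1*) and 1 transcript named for lying opposite *Il1b* (*Il1bos*). RNA was sequenced from mammary basal cells of wild-type adult female mice at day 7, with 1 library per group. The CL basal library came from mice given repeated intraperitoneal injections of clodronate liposomes (CL), lipid vesicles that kill the macrophages which take them up. The Ctrl basal library came from control mice, which the sample label lists as untreated and the series description as saline treated. By the study's methods, the cells were sorted as CD24+ and CD29 high after removal of cells with CD45, CD31 or TER119, markers of white blood cells, endothelium and red blood cells. How many mice stood behind a library was not stated.

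The Ctrl basal library held 37846008 counts and the CL basal library 38962512. With no replicates, the differences could not be set against the spread between animals. Each interval covers counting error only and compares these 2 libraries, not the conditions. Pairs of values are given with Ctrl basal first, and values in parentheses after counts are the log2 ratio of CL basal over Ctrl basal with its 95% interval. All 8 basal markers were abundant, with summed levels of 15600 TPM (counts per base of exon, scaled to the same total in each library) in Ctrl basal and 16600 in CL basal. The log2 ratios of these basal markers (CL basal over Ctrl basal) lay between -0.23 and 0.33. RNA of other cell types was also present and differed between the libraries. The 10 luminal markers summed to 6570 TPM in Ctrl basal and 3800 in CL basal, and all 10 had negative log2 ratios, 3 of them past the 2-fold call defined below. The 8 fibroblast markers summed to 143 and 103 TPM, the 8 endothelial markers to 269 and 221, the 12 macrophage markers to 32.3 and 28.6, and the 13 T and NK cell markers to 22.1 and 25.3, in the same order. The dendritic cell markers summed to 10.7 and 10.4 TPM, the B and plasma cell markers to 6.90 and 7.38, and the neutrophil and mast cell markers to 3.29 and 11.0, most of it *S100a9* (15 and 66 counts). Of these lists, 2 fibroblast genes (*Lum* and *Fap*) and 1 dendritic gene (*Itgax*) were called lower, and *S100a9* and the B cell gene *Cd22* higher. Among all genes compared, 4.44% were called lower and 1.99% higher. Among those with 20 to 99 counts over both libraries, as for *Fap*, *Itgax*, *S100a9* and *Cd22*, the shares were 13.6% and 7.27%. None of the macrophage, endothelial or T and NK cell markers compared was called. The 8 macrophage markers with at least 20 counts had a median log2 ratio of -0.28, with intervals below 0 for 2 of them and above 0 for 1 (1 and 0 on counts halved in case both mates of a pair were tallied). The interval of the fibroblast gene *Fap* held 0 on halved counts. *Mrc1* had 168 and 86 counts (-0.95, -1.36 to -0.59), *Cd68* 233 and 185 (-0.33, -0.62 to -0.05) and *C1qc* 16 and 6, whereas *Mertk* had 353 and 421 (0.25, 0.04 to 0.46, and -0.05 to 0.55 on halved counts). *Adgre1*, which encodes F4/80, had 7 and 10 and was not compared. The part of these cell types in the results below was not tested, and in a bulk library fewer cells of a type and less RNA per cell cannot be told apart.

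Interleukins are small secreted proteins through which immune, epithelial and stromal cells signal to each other at short range. Most act through a receptor built from a chain that binds the ligand and a chain that is shared by several ligands and carries the signal. The binding chain can also act in soluble form or be supplied by a neighbouring cell, as for IL-6 and IL-15. The IL-6 family shares gp130 (encoded by *Il6st*), a group of lymphocyte cytokines shares the common gamma chain (*Il2rg*), and IL-1 and IL-33 share an accessory chain (*Il1rap*). Decoy receptors and soluble antagonists bind ligand or receptor without signalling. Epithelial cells of many tissues make IL-6, IL-11 and IL-33, and macrophages are a well known source of IL-1, IL-12 and IL-23.

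Basal cell RNA held a small set of strongly expressed interleukin genes and a long list of scarce ones. Of the 83 genes, 13 had 0 counts in both libraries, 19 had between 1 and 19 counts over both, and 51 had at least 20 and were compared. Of all 49492 genes in the table, 24548, 7588 and 17356 fell in these classes, so the interleukin genes were detected more often than the table at large. Summed over all ligands, levels were 361 TPM in Ctrl basal and 369 in CL basal, and 5 ligands (*Il6*, *Il11*, *Il23a*, *Il33* and *Il17b*) made up 93.0% and 92.9% of these sums. Summed over all receptor chains, levels were 346 and 347 TPM, with *Il6st* alone at 31.7% and 31.9%. The summed levels were therefore nearly equal between the libraries, and the differences lay between genes.

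Of the 51 genes compared, 4 were called lower in CL basal and 2 were called higher, where a call means a change of at least 2-fold with a 95% interval that excludes no change. The called lower genes were *Il12a*, *Il17re*, *Il19* and *Il1rl1*, and the called higher genes were *Il34* and *Il11ra2*. Among all 17356 genes compared, 4.44% were called lower and 1.99% higher by the same rule. The 4 and 2 interleukin genes are shares of 7.84% and 3.92%. Scarce genes pass such a rule more often. Among genes with 20 to 99 counts over both libraries, 12.5% of 16 interleukin genes and 13.6% of all genes were called lower, and 6.25% and 7.27% higher. Among genes with at least 100 and fewer than 1000 counts, 9.09% of 22 interleukin genes and 3.26% of all genes were called lower, and 4.55% and 0.842% higher. Of the 13 interleukin genes with at least 1000 counts, 0 were called, beside 0.535% of all such genes lower and 0.155% higher. The median log2 ratio of the 51 genes was 0.01, beside -0.01 for all genes compared, and 40 of the 51 lay within 1.5-fold (78.4%, beside 82.0% of all genes). At a threshold of 1.5-fold, 6 were lower (adding *Il18r1* and *Il27ra*; background 9.45%) and 4 were higher (adding *Il20ra* and *Il1b*; background 4.78%). With a spread between animals assumed, as a coefficient of variation of 0.2 in edgeR's exact test, 0 of the 51 were called, against backgrounds of 0.622% lower and 0.242% higher; at 0.4, 0 were called against 0.0% and 0.0115%.

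**Figure D1:**
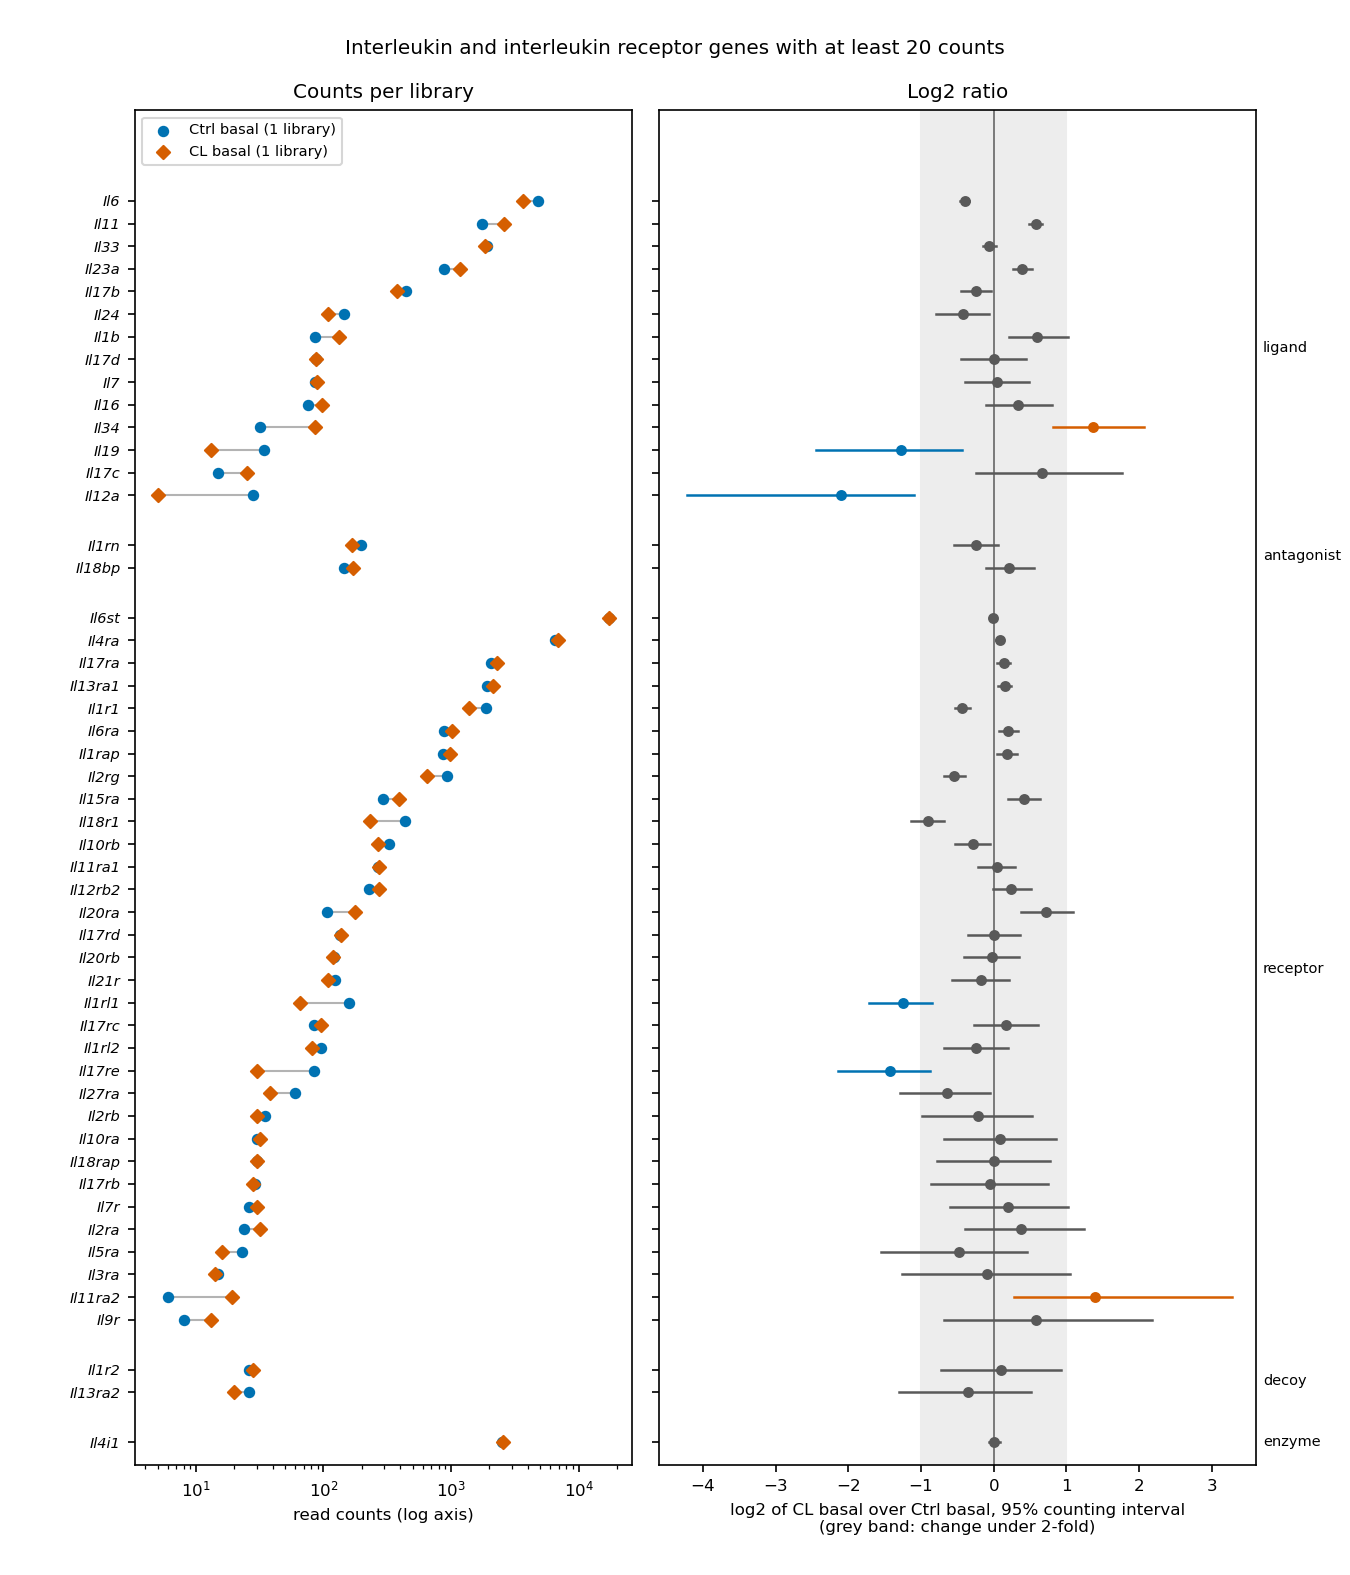
Read counts (left, log axis) and log2 ratios of CL basal over Ctrl basal with 95% counting intervals (right) for the 51 interleukin genes with at least 20 counts, by role and then by counts. Each point is 1 library on the left and 1 ratio on the right; blue ratios (4 genes) were called lower and orange ratios (2 genes) higher, and the abundant genes at the top of each role lie inside the grey band of changes under 2-fold.

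Without any fold threshold, 12 interleukin genes had an interval wholly below 0 and 12 an interval wholly above 0, each 23.5% of the 51, beside 25.4% and 25.2% of all genes. Even numbers made up 67.9% of the small Ctrl basal counts (1 to 20) and 68.7% of the small CL basal ones, beside 49.7% and 49.9% above 1000. Mates were probably tallied separately, which makes the intervals too narrow. With all counts halved to allow for this, 8 genes were below 0 (background 17.4%) and 10 above (background 18.5%). The 6 genes whose interval then held 0 were *Il17b*, *Il24*, *Il10rb*, *Il27ra*, *Il1rap* and *Il11ra2*.

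The most abundant ligand was *Il6* (chromosome 5, 30013114 to 30019981, GRCm38), an inflammatory cytokine that signals through gp130. It had 4821 counts in Ctrl basal and 3651 in CL basal, or 139 and 106 TPM, a level above 93.1% of all genes compared. Its log2 ratio was -0.40 (95% interval -0.47 to -0.34), a change under 2-fold. *Il11* (chromosome 7, 4772373 to 4782857), which also signals through gp130, ranked next among the ligands. It had 1742 counts in Ctrl basal and 2609 in CL basal, or 60.5 and 91.7 TPM, and a log2 ratio of 0.58 (0.49 to 0.67). The pair thus had opposite signs, with neither past 2-fold. *Il6* stood 2.29 times above *Il11* in TPM in Ctrl basal and 1.16 times above it in CL basal, while their joint share of all ligand TPM was 55.1% and 53.7%.

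The windows from 250 bases before to 50 bases after the annotated starts of *Il6* and *Il11* are shown because these are the leading ligands and differ in opposite directions. They are printed 5′ to 3′ on the strand of the gene (RefSeq, GRCm38.p6), with capitals for matches on either strand to TGANTCA, a binding motif of AP-1, or to GGG, any 2 bases and TTTCC, a form of the binding motif of NF-kB. RefSeq gives *Il11* a pair of starts.
Il6, chr5:30012864-30013163, plus strand: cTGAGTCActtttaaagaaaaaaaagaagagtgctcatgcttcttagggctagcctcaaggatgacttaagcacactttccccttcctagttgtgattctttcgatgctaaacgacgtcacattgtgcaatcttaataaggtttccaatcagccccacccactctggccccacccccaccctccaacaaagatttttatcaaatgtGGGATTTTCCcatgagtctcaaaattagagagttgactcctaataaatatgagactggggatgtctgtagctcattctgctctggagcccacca
Il11, inner start, chr7:4778092-4778391, minus strand: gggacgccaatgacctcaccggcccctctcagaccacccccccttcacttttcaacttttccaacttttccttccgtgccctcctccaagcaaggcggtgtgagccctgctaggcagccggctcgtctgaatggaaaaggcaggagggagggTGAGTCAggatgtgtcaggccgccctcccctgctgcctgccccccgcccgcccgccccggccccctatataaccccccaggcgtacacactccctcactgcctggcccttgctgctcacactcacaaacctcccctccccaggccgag
Il11, outer start, chr7:4782808-4783107, minus strand: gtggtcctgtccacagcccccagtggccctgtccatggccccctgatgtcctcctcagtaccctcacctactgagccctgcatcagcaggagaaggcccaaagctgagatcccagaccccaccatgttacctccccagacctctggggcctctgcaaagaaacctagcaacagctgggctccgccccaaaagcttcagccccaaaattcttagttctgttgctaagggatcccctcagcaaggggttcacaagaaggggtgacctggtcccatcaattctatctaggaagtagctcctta
The *Il6* window held 1 match to each motif, the inner *Il11* window 1 match to the AP-1 motif, and the outer *Il11* window no match to either. The matched letters do not overlap. Of 32851 promoter windows of this length in the table, 7.81% held the AP-1 motif and 1.63% the NF-kB motif. The 66 interleukin genes matched had 81 windows, of which 17.3% held the AP-1 motif and 9.88% the NF-kB motif. A match is a stretch of letters and shows no binding.

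The next ligands were *Il23a*, *Il33* and *Il17b*. *Il23a* (chromosome 10, 128296140 to 128298084) encodes the p19 chain, which forms IL-23 only with the p40 chain encoded by *Il12b*. It had 888 counts in Ctrl basal and 1170 in CL basal, or 45.6 and 60.9 TPM, with a log2 ratio of 0.39 (0.27 to 0.52). Its partner *Il12b* was scarce, with 12 and 6 counts, so that *Il23a* stood 107 times above *Il12b* in TPM in Ctrl basal and 282 times in CL basal, ratios that rest on those few *Il12b* counts. *Il33* (chromosome 19, 29925114 to 29960718), an alarm signal stored in the nuclei of barrier cells, had 1921 and 1850 counts (46.5 and 45.3 TPM). Its log2 ratio was -0.06 (-0.15 to 0.03), which was not distinguishable from no change. *Il17b*, a member of the IL-17 family, had 442 and 374 counts (44.6 and 38.2 TPM) and a log2 ratio of -0.24 (-0.45 to -0.04), with 20.4% of its exonic bases shared with *Gm38165*.

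The other 9 ligands compared were much scarcer, at mean levels from 0.68 to 6.41 TPM. Among these, *Il34* (chromosome 8, 110741829 to 110805924), a ligand of the macrophage growth factor receptor encoded by *Csf1r*, was the ligand called higher. It had 32 counts in Ctrl basal and 86 in CL basal, 1.14 and 3.10 TPM, a log2 ratio of 1.37 (0.82 to 2.06, and 0.57 to 2.35 on halved counts). *Csf1r* itself had 64 counts in Ctrl basal and 89 in CL basal (0.46, -0.01 to 0.96). Of its exonic bases, 17.8% overlap *Hmgxb3*, which had 1401 and 1712 counts, so its level is uncertain. *Ptprz1*, which encodes another receptor of IL-34, had 1055 and 1077 (0.03, -0.10 to 0.15). *Sdc1*, which encodes syndecan-1, a cell-surface proteoglycan that also binds IL-34, had 8006 and 9287 counts (0.21, 0.17 to 0.25). None of these 3 genes was called.

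*Il12a* and *Il19* were the ligands called lower. *Il12a* (chromosome 3, 68690644 to 68698547), which encodes the p35 chain of IL-12 and of IL-35, had 28 counts in Ctrl basal and 5 in CL basal, and the second chain of IL-35, *Ebi3*, had 6 and 3 (23.1% of its bases shared with *Gm16712*). The log2 ratio of *Il12a* was -2.10, but the interval was wide (-4.22 to -1.10, and -5.23 to -0.53 on halved counts). *Il19* (chromosome 1, 130932656 to 130940115), a cytokine of the IL-20 group that acts on epithelium, had 34 and 13 counts, a log2 ratio of -1.27 (-2.44 to -0.43). On halved counts its interval nearly reached 0 (-2.96 to -0.02). Both calls thus rest on few reads.

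The remaining 6 of these ligands were not called. *Il1b*, a main inflammatory product of macrophages, had 86 counts in Ctrl basal and 132 in CL basal (0.60, 0.21 to 1.02), which is 1.52-fold higher and under the 2-fold threshold. The neutrophil marker *S100a9* was higher in the same library, but other neutrophil genes were too scarce to compare. *Ly6g* had 0 counts in both libraries, *Csf3r* 4 and 4, *S100a8* 5 and 10, *Cxcr2* 6 and 12 and *Mpo* 0 and 6. The part of neutrophils in the *Il1b* value was not tested. *Il24*, which shares receptors with IL-19, had 145 and 108 counts (-0.42, -0.80 to -0.06). *Il17c*, an epithelial cytokine, had 15 and 25 counts (0.66, -0.25 to 1.76). *Il7*, a survival factor of lymphocytes (86 and 89 counts), *Il16*, a lymphocyte attractant (76 and 97, with 17.4% of its bases shared with other genes), and *Il17d* (88 and 88) had intervals that included no change. The soluble antagonists of IL-1 and IL-18 also showed no detectable difference at this depth. *Il1rn* had 198 counts in Ctrl basal and 168 in CL basal (-0.24, -0.55 to 0.06), and *Il18bp* had 145 and 169 (0.21, -0.11 to 0.55).

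**Figure D2:**
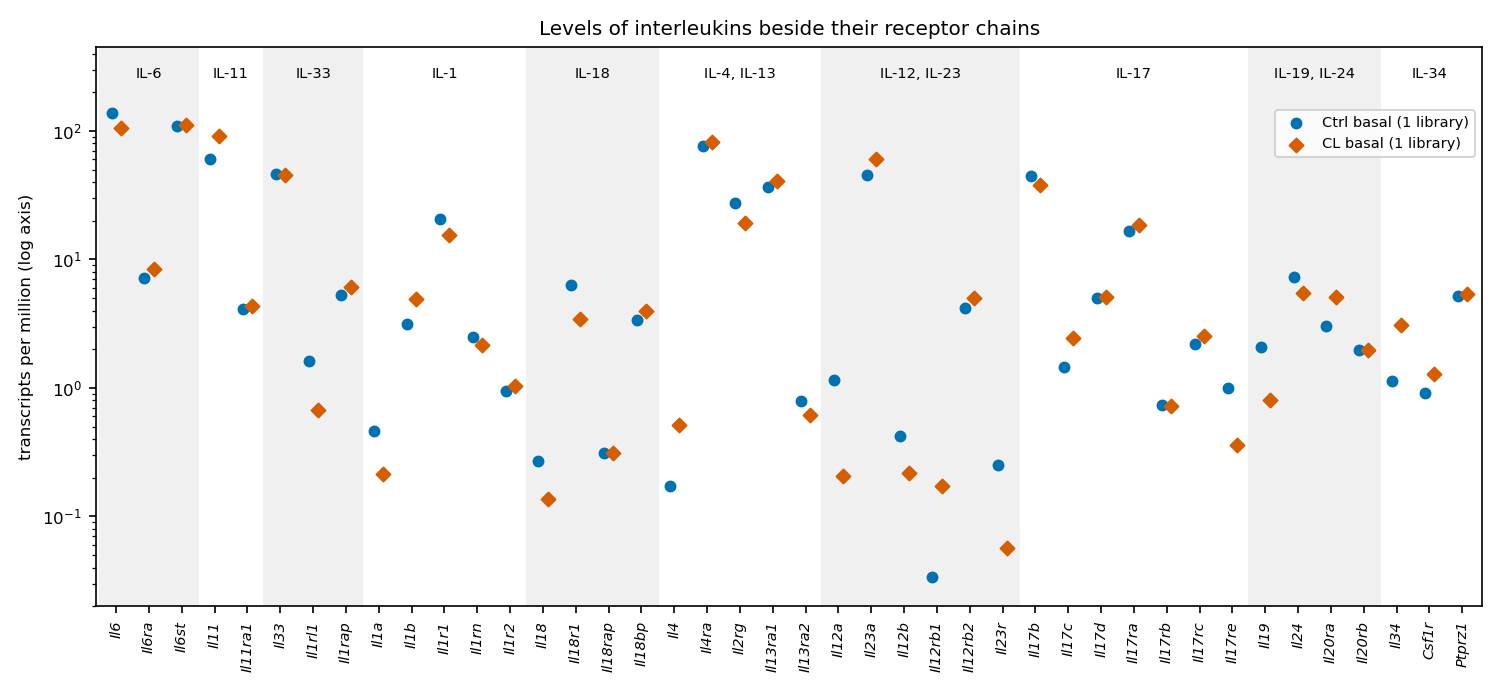
Levels in TPM (log axis) of interleukins beside the chains of their receptors, antagonists and decoys, grouped by ligand, with 1 point per library; *Il6st* and *Il1rap* are drawn once although other groups share them. *Il6*, *Il6st*, *Il11*, *Il4ra*, *Il23a*, *Il33* and *Il17b* lie at 38.2 TPM or above in both libraries, whereas the second IL-23 chain *Il12b* and the IL-33 receptor *Il1rl1* lie far below their partners.

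The receptor chain with the highest level was *Il6st* (chromosome 13, 112464070 to 112510086), the shared signal chain gp130. It had 17427 counts in Ctrl basal and 17367 in CL basal, 110 and 111 TPM, with a log2 ratio of -0.01 (-0.04 to 0.02). The chains that bind the ligands were much scarcer than the shared chain: *Il6st* stood 15.3 and 13.2 times above *Il6ra*, the IL-6 receptor, and 26.4 and 25.5 times above *Il11ra1*, the IL-11 receptor, in TPM (Ctrl basal first). *Il6ra* had 888 counts in Ctrl basal and 1022 in CL basal (0.20, 0.07 to 0.33). *Il11ra1* had 266 and 274 counts (0.04, -0.21 to 0.29). The fold differences of these receptor chains were 1.15 and 1.03, beside 1.32 (lower) for *Il6* and 1.49 (higher) for *Il11*. *Il11ra2*, a close copy of *Il11ra1*, was called higher with 6 and 19 counts (1.39, 0.28 to 3.27), but halved counts gave an interval from -0.32 to 4.17, and reads of such near-identical genes may be split uncertainly. *Il27ra*, which pairs with gp130 to bind IL-27, had 60 and 38 counts (-0.64, -1.29 to -0.05).

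Among 6 neighbouring genes of the IL-1 receptor family, 1 was called lower (background 4.44% of all genes) and the others gave smaller or undetectable differences. *Il1r2*, *Il1r1*, *Il1rl2*, *Il1rl1*, *Il18r1* and *Il18rap* form a row of 6 genes on the plus strand of chromosome 1, from 40074079 to 40551705, a span of 478 kb. *Il1rl1* (40429570 to 40465415), the IL-33 receptor ST2, had 159 counts in Ctrl basal and 66 in CL basal, a log2 ratio of -1.25 (-1.71 to -0.85, and -1.90 to -0.67 on halved counts), and was called lower. Its neighbour *Il18r1* (40465552 to 40500854), the ligand-binding chain of the IL-18 receptor, starts 136 bases beyond its end. *Il18r1* had 436 and 233 counts, a log2 ratio of -0.90 (-1.14 to -0.68) that did not reach 2-fold. *Il1r1*, the signalling IL-1 receptor, had 1868 and 1387 counts (-0.43, -0.53 to -0.33). The other 3 genes of the row had intervals that included no change. *Il1rl2*, the IL-36 receptor, had 96 and 81 counts (-0.24, -0.69 to 0.19), the decoy *Il1r2* had 26 and 28 (0.10, -0.72 to 0.93), and *Il18rap*, the accessory chain for IL-18, had 30 and 30.

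The accessory chain *Il1rap*, which lies elsewhere, had 866 counts in Ctrl basal and 986 in CL basal (0.18, 0.05 to 0.32). The accessory chain stood 3.31 times above *Il1rl1* in TPM in Ctrl basal and 9.07 times in CL basal. The ligand *Il33* stood 28.9 times above *Il1rl1* in Ctrl basal and 67.0 times in CL basal. *Il18*, the ligand of the IL-18 receptor, had only 4 and 2 counts.

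Receptors of IL-4 and IL-13, the cytokines that drive the alternative state of macrophages, were among the best expressed. *Il4ra* (chromosome 7, 125552120 to 125579474), the chain that both cytokines share, had 6563 counts in Ctrl basal and 6943 in CL basal, 76.4 and 81.8 TPM (0.08, 0.03 to 0.13). It pairs with *Il13ra1* in tissue cells or with *Il2rg* in blood cells. *Il13ra1* had 1931 and 2152 counts (36.3 and 41.0 TPM; 0.15, 0.06 to 0.24). *Il2rg* had 936 and 645 counts (27.4 and 19.1 TPM; -0.54, -0.69 to -0.39), and 728 of its 2387 exonic bases overlap *Gm20489*, which had 681 and 471 counts. The level of *Il2rg* is therefore uncertain. By these values, the level of *Il13ra1* was 1.33 times that of *Il2rg* in Ctrl basal and 2.15 times in CL basal, ratios that carry the same uncertainty. The decoy *Il13ra2* had 26 and 20 counts (-0.35, -1.30 to 0.51). Of the ligands, *Il4* had 3 and 9 counts and *Il13* had 0 in both libraries.

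Of the other chains that work with the common gamma chain, *Il15ra*, which binds IL-15, had the highest level, at 4.62 and 6.27 TPM. It had 294 counts in Ctrl basal and 394 in CL basal (0.42, 0.20 to 0.64). *Il2ra* (24 and 32 counts), *Il2rb* (35 and 30), *Il7r* (26 and 30), *Il9r* (8 and 13) and *Il21r* (122 and 108), receptor chains found mainly on lymphocytes, had intervals that included no change. So did *Il3ra* (15 and 14) and *Il5ra* (23 and 16), the chains that bind IL-3 and IL-5. Mean levels of these 7 chains ran from 0.149 TPM (*Il9r*) to 2.43 TPM (*Il21r*). Of the 13 T and NK cell markers, 9 had at least 20 counts and all 9 had intervals that included no change. They ran from *Cd8a* (10 and 10 counts) and *Cd3e* (14 and 14) to *Lck* (207 and 229), *Gzma* had 3 and 6, *Nkg7* had 2 and 0, and *Ncr1* and *Klrb1c* were at 0.

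Among IL-17 receptors, *Il17re* (chromosome 6, 113458484 to 113470758), which binds IL-17C on epithelium, was called lower. It had 84 counts in Ctrl basal and 30 in CL basal, a log2 ratio of -1.43 (-2.14 to -0.87, and -2.45 to -0.61 on halved counts). Its partner *Il17ra*, the chain shared by the family, had 2069 and 2282 counts (16.7 and 18.6 TPM; 0.14, 0.05 to 0.22). The neighbouring *Il17rc*, which binds IL-17A and IL-17F, had 84 and 95 counts (0.17, -0.27 to 0.61). *Il17rb* (29 and 28 counts) and *Il17rd* (135 and 136) differed by no more than 1 count. Of these 5 chains, *Il17re* was the one called, beside 4.44% of all genes called lower, and the differences between chains were not tested.

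Neither chain of the receptor for IL-19 and IL-24 was called. *Il20ra*, the chain that binds with *Il20rb*, had 106 counts in Ctrl basal and 176 in CL basal, a log2 ratio of 0.72 (0.37 to 1.09), past 1.5-fold but not 2-fold. Its partner *Il20rb* had 120 and 118 counts (-0.03, -0.41 to 0.35). *Il10rb*, a chain shared by receptors of IL-10 and IL-22, had 325 and 266 counts (-0.29, -0.53 to -0.05), with 14.9% of its bases shared with *Gm21970*, and *Il10ra*, which binds IL-10, had 30 and 32. The chains for IL-12 and IL-23 were *Il12rb2*, with 228 and 271 counts (0.24, -0.01 to 0.51), *Il12rb1*, with 2 and 10, and *Il23r*, with 9 and 2. Of the exonic bases of *Il12rb2*, 40.0% overlap the abundant gene *Serbp1*, so its level is uncertain. Likewise *Il4i1*, an amino acid oxidase that IL-4 induces, had 2528 and 2557 counts, but 88.3% of its bases overlap *Tbc1d17*, *Nup62* or *Atf5*.

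**Figure D3:**
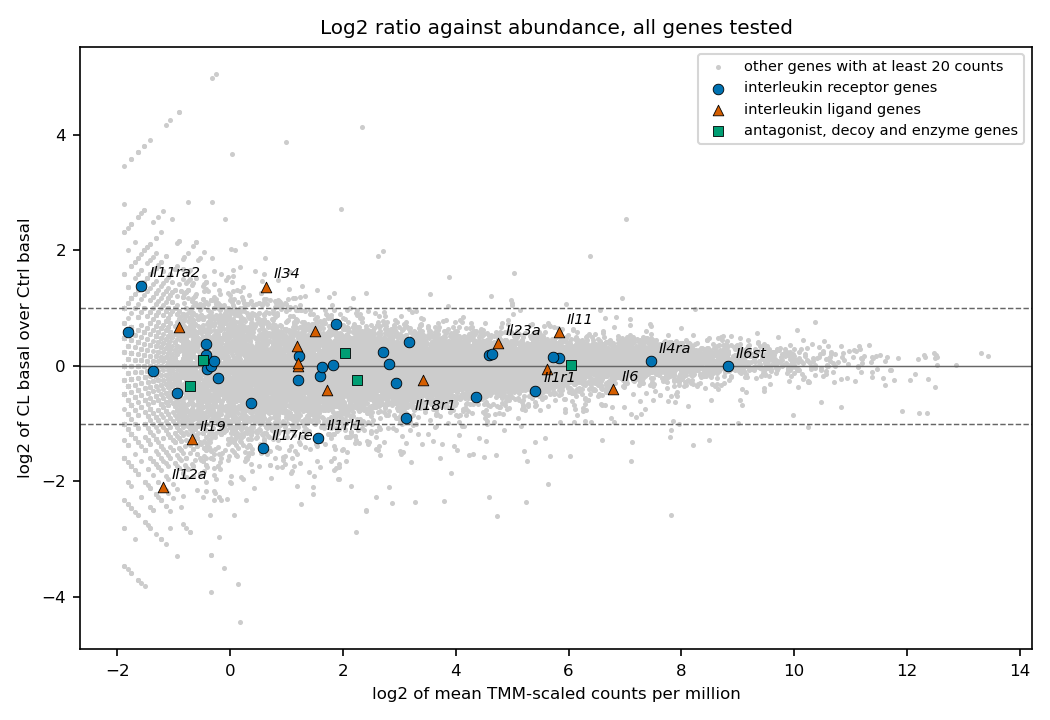
Log2 ratio of CL basal over Ctrl basal against the log2 of mean scaled CPM for the 51 interleukin genes among the 17356 genes compared (others in grey; blue circles for receptors, orange triangles for ligands, green squares for the rest). The dashed lines mark 2-fold; the 6 called interleukin genes lie on the left among scarce genes, and *Il6*, *Il11*, *Il4ra* and *Il6st* on the right lie between the lines.

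The 19 genes with fewer than 20 counts were not compared. In order of Ctrl basal and CL basal, the ligands were *Il1a* (13 and 6 counts), *Il12b* (12 and 6), *Il21* (12 and 6), *Il10* (7 and 2), *Il15* (6 and 6), *Il18* (4 and 2), *Il17a* (4 and 0), *Il4* (3 and 9), *Il5* (2 and 4), *Il17f* (0 and 8), *Il27* (0 and 3) and *Il1f9* (0 and 2). The receptors among them were *Il12rb1*, *Il23r*, *Il31ra* (3 and 6), *Il22ra1* (2 and 4), *Il1rapl1* (2 and 2) and the decoy *Il22ra2* (10 and 4), and *Il1bos* had 2 and 4. The 13 genes at 0 in both libraries were *Il2*, *Il3*, *Il9*, *Il13*, *Il20*, *Il22*, *Il25*, *Il31*, *Il1f5*, *Il1f6*, *Il1f8*, *Il1f10* and *Il1rapl2*. A count of 0 allows up to 3 read pairs, which is 6 counts if mates were tallied separately, or 0.159 CPM (a share of all counts on a fixed scale) in Ctrl basal and 0.154 in CL basal. The genes at 0 included *Il2*, *Il9* and *Il13*, products of activated T cells, and *Il25*, a product of tuft cells. Other products of activated T cells (*Il4*, *Il5*, *Il17a*, *Il17f* and *Il21*) were not absent but had the few counts given above.

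Genes that work with these receptors but are named otherwise were followed through 4 lists, chosen by function. *Csf1r* stands in 1 of them and among the macrophage markers. Of 17 compared genes for partner ligands and receptor chains, 1 was called lower and 0 higher (median log2 ratio 0.00), beside 4.44% and 1.99% of all genes. The called gene was *Sigirr*, which encodes a receptor that restrains IL-1 and IL-33 signalling, with 47 counts in Ctrl basal and 9 in CL basal (-2.16, -3.60 to -1.34). The gp130 ligand *Lif* (6023 and 6454 counts; 0.10, 0.05 to 0.15) and the receptor chain *Osmr*, which binds oncostatin M with gp130 (10420 and 10988; 0.07, 0.03 to 0.11), were abundant and close to level. *Tslp*, an epithelial cytokine that acts on dendritic cells, had 43 and 24 counts (-0.79, -1.63 to -0.09, and -2.00 to 0.24 on halved counts). *Cntfr*, a receptor chain that works with gp130, had 454 and 579 (0.35, 0.17 to 0.53).

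Of 20 genes for signalling from IL-1 and IL-17 receptors, 0 were called in either direction, with a median of -0.08 and a range from -0.79 (*Ikbkg*, a subunit of the kinase that activates NF-kB) to 0.39 (*Peli1*, a ubiquitin ligase). The adaptor *Myd88* had 1390 and 1542 counts (0.15, 0.04 to 0.25), and the inhibitory kinase relative *Irak3* had 873 and 653 (-0.42, -0.57 to -0.27). On halved counts the interval of *Myd88* held 0. Of 9 compared genes of the inflammasome, which processes IL-1 and IL-18, 1 was called lower and 0 higher (median 0.03), again beside 4.44% and 1.99% of all genes. This was *Aim2*, a sensor of cytosolic DNA, with 75 and 25 counts (-1.52, -2.30 to -0.92). The protease *Casp1* had 303 and 362 counts (0.25, 0.03 to 0.48, and -0.07 to 0.57 on halved counts).

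Of 17 genes for signalling from gp130 and the common gamma chain, 0 were called (median 0.06, beside -0.01 for all genes). Among all genes compared, 4.44% were called lower and 1.99% higher, and among those with at least 1000 counts 0.535% and 0.155%. Intervals lay above 0 for 9 of the 17 and below 0 for 6, or for 9 and 4 on halved counts. Most of these genes are abundant, and among all genes with at least 1000 counts 41.4% had intervals above 0 and 27.2% below. *Socs3*, the feedback inhibitor of gp130 that its own signal induces, had 16755 counts in Ctrl basal and 23516 in CL basal, 405 and 575 TPM (0.49, 0.46 to 0.51). *Stat3*, the transcription factor that gp130 activates, had 17069 and 20982 counts (0.29, 0.26 to 0.32), and *Pim1*, a STAT target kinase, had 2849 and 3573 (0.32, 0.25 to 0.39). *Jak1*, the main kinase of gp130, had 12495 and 13048 (0.06, 0.02 to 0.09). *Cish* and *Socs1*, other feedback inhibitors, had log2 ratios of 0.60 (0.44 to 0.77) and 0.58 (0.23 to 0.95). The other genes with intervals above 0 were *Ptpn11*, *Irs2* and *Bcl6*, at 0.11 to 0.26. Among those below 0, *Jak2*, another kinase of gp130, had 6524 and 5641 counts (-0.21, -0.27 to -0.16). *Adam10*, a protease that sheds cytokine receptors, had 2936 and 2208 (-0.41, -0.50 to -0.33). *Adam17*, *Stat6* and *Stat5b* had log2 ratios of -0.14, -0.13 and -0.22, and on halved counts the intervals of *Adam17* and *Stat5b* held 0. *Jak3*, the kinase bound to the common gamma chain, had 243 and 170 counts (-0.51, -0.81 to -0.23), the same sign as *Il2rg*. Of the genes named from these lists, *Myd88*, *Cish* and *Pim1* also share 11.3%, 11.5% and 17.7% of their exonic bases with other genes.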

How the data were processed

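Raw read counts per gene, as deposited by the authors, were taken for 1 Ctrl basal and 1 CL basal library (columns matched by title). They lie over exons in featureCounts layout. The submitters' notes name GRCm38 (mm10). The aligner, annotation release and strand setting are not given in the sources used here, so reads of overlapping genes are uncertain. Deposited exon lengths gave TPM. A deposited ratio and its log2 were not used.

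Scaling was by TMM (edgeR 4.0.16, R 4.3.3). Log2 ratios used a prior count of 2 and were compared where the summed count reached 20. Intervals of 95% are exact (Clopper-Pearson, scipy 1.17.1). Without replicates no test with a measured spread could be run and no p-value is printed; edgeR's exact test was run only as an alternative, with an assumed spread. The scripts' statistics were checked on simulated counts. Genes, lists and tests were chosen with earlier results of these data known. All interleukin genes are accounted for. By rule, log2 ratios were given for called genes, the 3 highest by TPM in each role and partner chains. Those of other interleukin genes, and of *Tslp*, *Cntfr*, *Sigirr*, *Aim2*, *Ikbkg*, *Peli1*, *Myd88*, *Irak3*, *Casp1* and the genes named for gp130 signalling, macrophages and T cells, were added after their values were seen. Alternatives were total counts, upper quartile or DESeq2 1.42.0 size factors, prior counts of 0.5 and 5, no filter or at least 100 counts, halved counts, 1.5-fold, an assumed coefficient of variation of 0.2 or 0.4 (edgeR exact test, adjusted p under 0.05), and removal of the trend on mean expression.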

Additional observations from a re-analysis of the deposited data

How the results depend on the processing

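The median log2 ratio of the interleukin genes ran from -0.03 (total counts) to 0.09 (trend on mean expression removed), within 0.1 of 0.01. The count of 4 lower genes became 2 with at least 100 counts, where *Il12a* and *Il19* drop out, and 0 at an assumed coefficient of variation of 0.2 or 0.4. The count of 2 higher genes became 4 with no filter (adding *Il17f* and *Il12rb1*), 4 at 1.5-fold, 1 with at least 100 counts, 1 with halved counts (*Il34* alone in both) and 0 at 0.2 or 0.4. Under other scalings, other prior counts and removal of the trend, the same 6 genes were called. Of 443 values of single genes under alternatives, 439 lay within the 95% interval of the reported value. The other 4 belonged to abundant genes with narrow intervals, *Il6st* (-0.05 with total counts and -0.09 without the trend), *Il6* (-0.47 without the trend) and *Il4ra* (0.00 without the trend). Values of *Il12a* ran from -2.38 to -1.73 and those of *Il34* from 1.29 to 1.48. No paired analysis was possible because there was 1 library a group, so none could be left out. Depth limits the genes under 100 counts, among them *Il12a*, *Il19* and *Il11ra2*.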
